A study of Mus musculus with 3 samples.

Results

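The 40 genes described here act in DNA replication and cell division, and were taken by symbol from a list of such genes, by a rule that uses no measured value, although earlier results of these data were known when the list was made. All 40 were found once each among the 32285 genes of the count matrices. They comprise 27 mitotic members, 12 S-phase members and Stmn1, which was put in neither set. The RNA came from full-thickness excisional wounds of the dorsal skin of age-matched male adult C57BL/6J mice, an unmodified inbred strain, harvested on Day 3, Day 7 and Day 14 post injury. One frozen section per day was placed on a Visium slide, on which each spot carries a positional barcode and captures polyadenylated RNA from a small region that can hold several cells. With 1 section per day the days have no replicate, so no test was made, and every interval given in parentheses is a 95% interval that covers counting error only. No section of unwounded skin was analysed. The study's figure legends mark intact skin and muscle beside the wound site in these sections. The spots under tissue were pooled without separating these regions.

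A dividing cell copies its DNA in S phase, separates the copies in mitosis and splits in cytokinesis. The MCM proteins form the helicase that opens the DNA, PCNA holds the polymerases on it, and RRM2, TYMS and TK1 supply nucleotides. CDK1 with its cyclins drives entry into mitosis, aurora and polo kinases and kinesins build and use the spindle, and the anaphase-promoting complex with CDC20 ends mitosis by protein breakdown. In healing skin, keratinocytes at the wound edge, fibroblasts and endothelial cells of the granulation tissue divide during repair, and the matrix of a growing hair follicle is among the fastest dividing tissues of the body. Many of these genes are transcribed only in a window of the cycle, under E2F factors for S phase and under the DREAM, B-MYB and FOXM1 complexes, which bind cell cycle homology regions, for mitosis.

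Promoter windows from RefSeq, GRCm38.p6, 250 bases before to 50 bases after the gene start, were available for 34 of the 40 members. Ccna2, Aurkb, Tpx2, Kif20a, Mcm4 and Stmn1 had no entry. Exact words were searched on both strands. A member counted when any of its windows held a word, while the share over all windows counts each window separately. These measures are therefore not like for like. The cell cycle homology region was searched as TTTGAA or TTCGAA, the second of which reads the same on both strands, and the CCAAT box as CCAAT. At least 1 of the homology region words was found in 19 of 23 mitotic members (82.6%), 2 of 11 S-phase members (18.2%) and 19.2% of all 32851 promoter windows of that length. CCAAT was found in 20 of 23 mitotic members, 8 of 11 S-phase members and 37.4% of all windows. Both kinds of word occurred together in 18 of 23 mitotic members, in 2 of 11 S-phase members and in 7.53% of all windows. The E2F words TTTCCCGC, TTTCGCGC, TTTGCCGC and TTTGGCGC were found in 6 of 11 S-phase members, in 1 of 23 mitotic members (Cdk1) and in 2.27% of all windows. The letters of such a word are a description of the window, and binding was not measured.

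The windows printed here, 250 bases before the start, were chosen for holding these words and show where the words lie. They are the 4 mitotic members with the most UMIs among those with both a homology region word and a CCAAT word, and the 3 S-phase members with the most UMIs among those with an E2F word. In the mitotic members capitals mark the homology region words and CCAAT (or, on the other strand, TTCAAA and ATTGG), and in the S-phase members capitals mark E2F words alone, so that CCAAT words there stay in lower case.
Mki67 chr7:135716380-135716629 (minus strand): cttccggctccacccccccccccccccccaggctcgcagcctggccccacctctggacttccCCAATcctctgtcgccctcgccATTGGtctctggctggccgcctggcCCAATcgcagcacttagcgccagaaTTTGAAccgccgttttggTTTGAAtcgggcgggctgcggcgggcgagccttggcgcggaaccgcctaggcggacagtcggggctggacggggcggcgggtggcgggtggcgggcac
Top2a chr11:99024190-99024439 (minus strand): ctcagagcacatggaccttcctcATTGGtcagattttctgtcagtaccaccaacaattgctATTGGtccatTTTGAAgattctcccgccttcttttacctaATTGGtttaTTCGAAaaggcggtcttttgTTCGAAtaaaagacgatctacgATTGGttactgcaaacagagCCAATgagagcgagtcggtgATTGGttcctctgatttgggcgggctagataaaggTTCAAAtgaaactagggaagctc
Cdk1 chr10:69352913-69353162 (minus strand): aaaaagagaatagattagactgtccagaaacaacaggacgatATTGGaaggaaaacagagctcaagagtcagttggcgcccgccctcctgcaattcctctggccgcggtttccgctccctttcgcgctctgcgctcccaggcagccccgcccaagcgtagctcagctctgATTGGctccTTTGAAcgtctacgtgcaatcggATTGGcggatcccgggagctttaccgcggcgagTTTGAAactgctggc
Cdc20 chr4:118437344-118437593 (minus strand): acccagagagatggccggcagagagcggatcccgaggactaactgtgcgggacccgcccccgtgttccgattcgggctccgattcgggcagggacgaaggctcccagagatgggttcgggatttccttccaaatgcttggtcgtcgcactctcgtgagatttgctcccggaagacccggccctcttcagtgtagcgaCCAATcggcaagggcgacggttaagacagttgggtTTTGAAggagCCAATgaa
Uhrf1 chr17:56304063-56304312 (plus strand): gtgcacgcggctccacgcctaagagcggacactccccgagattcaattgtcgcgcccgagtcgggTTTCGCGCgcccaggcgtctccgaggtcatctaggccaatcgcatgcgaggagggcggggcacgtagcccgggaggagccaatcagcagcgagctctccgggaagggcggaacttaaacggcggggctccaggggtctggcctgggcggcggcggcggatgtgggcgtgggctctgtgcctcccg
Mcm7 chr5:138171884-138172133 (minus strand): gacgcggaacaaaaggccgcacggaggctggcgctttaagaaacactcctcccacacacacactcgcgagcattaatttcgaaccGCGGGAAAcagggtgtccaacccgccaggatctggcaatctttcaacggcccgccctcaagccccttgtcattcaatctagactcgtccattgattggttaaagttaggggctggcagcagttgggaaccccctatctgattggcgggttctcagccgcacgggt
Mcm5 chr8:75109259-75109508 (plus strand): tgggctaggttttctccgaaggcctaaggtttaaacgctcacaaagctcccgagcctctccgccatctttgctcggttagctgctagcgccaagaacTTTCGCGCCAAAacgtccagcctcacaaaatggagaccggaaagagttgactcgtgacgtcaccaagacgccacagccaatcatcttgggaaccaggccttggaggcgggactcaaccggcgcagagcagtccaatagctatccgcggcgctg

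Mki67 carried 2 homology region words and 3 CCAAT words, with the words of the first kind ending 111 and 93 bases before the start. In Mcm5 the 2 capital words overlap, 1 on each strand. The window of Mcm7 also holds TTCGAA, left in lower case.

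The tissue image marked 664, 549 and 697 spots as lying under tissue on Day 3, Day 7 and Day 14, which held 1772259, 4442962 and 4611723 UMIs (unique molecular identifiers, 1 per captured RNA molecule). The median spot held 1513, 6687 and 4827 UMIs, so the Day 3 section was the shallowest, and 144 of its spots had under 500 UMIs against 10 and 8. All 3 slides share their whole set of barcodes, which mark positions and not cells. Skin markers were present on each day: Krt14, the keratin of basal keratinocytes, was at 2580, 953.2 and 2151 CPM (UMIs per 1000000 UMIs under tissue), and Postn, a matrix protein of granulation tissue, at 239.8, 3692 and 550.1 CPM. Krt71, a keratin of the inner root sheath of growing hair follicles, was at 0 of 1772259 UMIs on Day 3, with an exact Poisson upper limit of 2.08 CPM, at 1 UMI on Day 7 and at 1491 CPM on Day 14. The 8 skeletal muscle markers together took 32444, 46201 and 50929 CPM.

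The 40 members together stood at about the same level on Day 3 and Day 7 and at more than 2 times that level on Day 14. Their 1663 UMIs on Day 3 made 938.4 CPM (893.8 to 984.6), their 4221 on Day 7 made 950 CPM (921.6 to 979.1) and their 9899 on Day 14 made 2146 CPM (2104 to 2189). On the log2 scale the sum differed by 0.02 (-0.06 to 0.10) for Day 7 over Day 3, by 1.19 (1.12 to 1.27) for Day 14 over Day 3 and 1.18 (1.12 to 1.23) for Day 14 over Day 7, the last a 2.26-fold difference. The intervals of Day 3 and Day 7 overlap, and that of Day 14 lies above both. A section with more dividing cells and one with more of this RNA per dividing cell cannot be told apart in these data, and the day cannot be told apart from the animal and the section. Krt71 went from 0 and 1 UMIs to 6874 UMIs over the same sections. Without the 10% of Day 14 spots richest in Krt71, Day 14 was higher by 1.03 than Day 7 and by 1.05 than Day 3 on this scale. This removal left spots rich in hair genes in place. Of the 69 spots richest in hair matrix and shaft genes, 29 were among those removed. Kept spots next to the removed ones stood at 2552 CPM. The part of hair follicles in the Day 14 level was not tested. Without the 20% of spots richest in muscle and the 20% richest in fat genes in each section, Day 14 over Day 3 was 1.08.

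**Figure D1:**
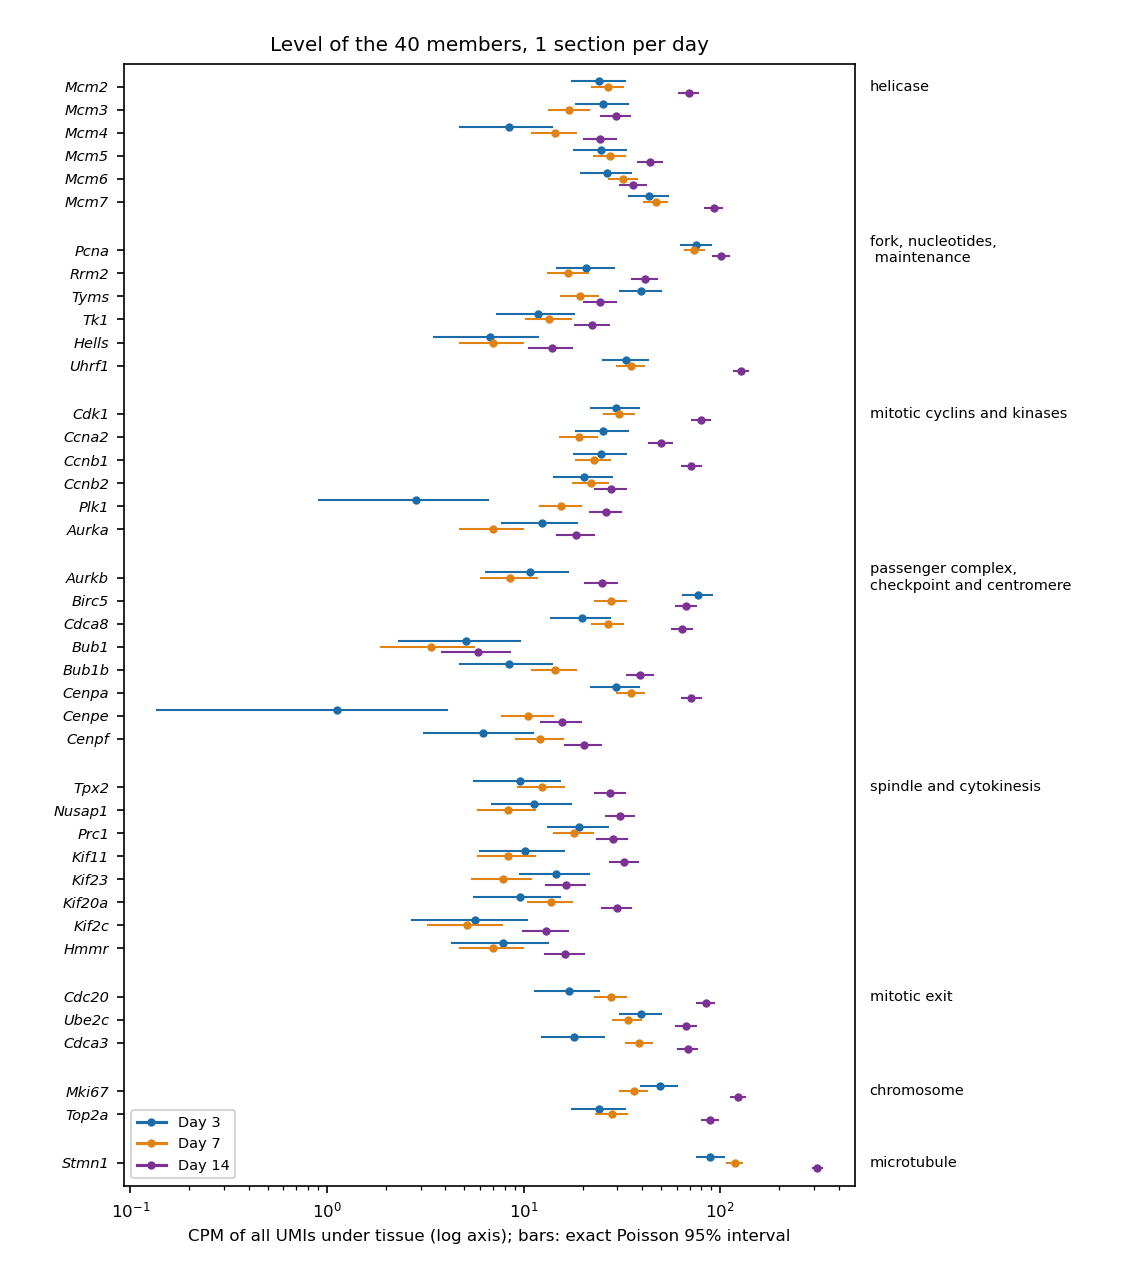
Each row is a member, grouped by role, and each point its level in the 1 section of that day, in CPM on a log axis, with its exact Poisson 95% interval as a bar. Day 14 points lie to the right of both other days for most members, with Birc5 and Tyms highest on Day 3.

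The 6 MCM helicase members were higher on Day 14 than on Day 7 to unequal degrees, and their order on Day 3 and Day 7 was not the same. The sum of the 6 was 153, 165 and 296 CPM, with a log2 ratio of 0.84 (0.71 to 0.97) for Day 14 over Day 7. Mcm7 was at 43.5 CPM on Day 3 (77 UMIs, 34.3 to 54.3), 47.04 CPM on Day 7 (209 UMIs, 40.9 to 53.9) and 92.4 CPM on Day 14 (426 UMIs, 83.8 to 102). Mcm2 was at 24.3 CPM on Day 3 (43 UMIs, 17.6 to 32.7), 26.8 CPM on Day 7 (119 UMIs, 22.2 to 32.05) and 69.4 CPM on Day 14 (320 UMIs, 61.99 to 77.4). Both were highest on Day 14 with intervals that overlapped neither other day. Mcm5 followed the same order, at 24.8 CPM on Day 3 (44 UMIs, 18.04 to 33.3), 27.5 CPM on Day 7 (122 UMIs, 22.8 to 32.8) and 44.02 CPM on Day 14 (203 UMIs, 38.2 to 50.5). Mcm6 did not separate Day 14 from Day 7, at 26.5 CPM on Day 3 (47 UMIs, 19.5 to 35.3), 32.2 CPM on Day 7 (143 UMIs, 27.1 to 37.9) and 36 CPM on Day 14 (166 UMIs, 30.7 to 41.9), with a log2 ratio of 0.16 (-0.17 to 0.49). Mcm3 was at 25.4 CPM on Day 3 (45 UMIs, 18.5 to 33.98), 17.1 CPM on Day 7 (76 UMIs, 13.5 to 21.4) and 29.5 CPM on Day 14 (136 UMIs, 24.7 to 34.9), and its log2 ratio of Day 7 over Day 3 lay below 0, at -0.57 (-1.12 to -0.005). Mcm4 was at 8.46 CPM on Day 3 (15 UMIs, 4.74 to 13.96), 14.4 CPM on Day 7 (64 UMIs, 11.1 to 18.4) and 24.5 CPM on Day 14 (113 UMIs, 20.2 to 29.5), with 0.77 (-0.06 to 1.69) for the same days. The subunits act as 1 ring in the cell, and their log2 ratios of Day 14 over Day 7 ran from 0.16 for Mcm6 to 1.37 for Mcm2.

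The 6 members of the replication fork, of nucleotide supply and of chromatin maintenance differed from each other, and Uhrf1 and Tyms mark its ends. Uhrf1, which carries DNA methylation over to the new strand, was at 33.3 CPM on Day 3 (59 UMIs, 25.3 to 42.9), 35.1 CPM on Day 7 (156 UMIs, 29.8 to 41.1) and 127 CPM on Day 14 (586 UMIs, 117 to 138). Its Day 14 level was 3.62-fold that of Day 7. Pcna, the sliding clamp, was at 75.6 CPM on Day 3 (134 UMIs, 63.4 to 89.5), 73.8 CPM on Day 7 (328 UMIs, 66.05 to 82.3) and 101 CPM on Day 14 (467 UMIs, 92.3 to 111), with a log2 ratio of 0.46 (0.25 to 0.66) for Day 14 over Day 7. Rrm2, a subunit of ribonucleotide reductase, was at 20.9 CPM on Day 3 (37 UMIs, 14.7 to 28.8), 16.9 CPM on Day 7 (75 UMIs, 13.3 to 21.2) and 41.4 CPM on Day 14 (191 UMIs, 35.8 to 47.7). Tyms, thymidylate synthase, was at 39.5 CPM on Day 3 (70 UMIs, 30.8 to 49.9), 19.4 CPM on Day 7 (86 UMIs, 15.5 to 23.9) and 24.5 CPM on Day 14 (113 UMIs, 20.2 to 29.5). Its level was thus highest on Day 3, with a log2 ratio of -1.03 (-1.50 to -0.55) for Day 7 over Day 3 and of -0.69 (-1.13 to -0.24) for Day 14 over that day. Tk1, thymidine kinase, and Hells, a chromatin remodeller, had 184 and 107 UMIs over the 3 sections and log2 ratios of 0.73 (0.25 to 1.21) and 0.99 (0.35 to 1.66) for Day 14 over Day 7.

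The mitotic cyclins and kinases summed to 115, 117 and 273 CPM. Cdk1, the kinase of mitotic entry, was at 29.3 CPM on Day 3 (52 UMIs, 21.9 to 38.5), 30.6 CPM on Day 7 (136 UMIs, 25.7 to 36.2) and 79.6 CPM on Day 14 (367 UMIs, 71.7 to 88.2). Its partner cyclin Ccnb1 was at 24.8 CPM on Day 3 (44 UMIs, 18.04 to 33.3), 22.7 CPM on Day 7 (101 UMIs, 18.5 to 27.6) and 71.3 CPM on Day 14 (329 UMIs, 63.8 to 79.5), and Ccna2, the cyclin of S phase and G2, was at 25.4 CPM on Day 3 (45 UMIs, 18.5 to 33.98), 19.1 CPM on Day 7 (85 UMIs, 15.3 to 23.7) and 49.9 CPM on Day 14 (230 UMIs, 43.6 to 56.8). All 3 were highest on Day 14, with overlapping intervals on Day 3 and Day 7. Ccnb2, the second B-type cyclin, was at 20.3 CPM on Day 3 (36 UMIs, 14.2 to 28.1), 22.1 CPM on Day 7 (98 UMIs, 17.9 to 26.9) and 27.8 CPM on Day 14 (128 UMIs, 23.2 to 33), with a log2 ratio of 0.33 (-0.06 to 0.73) for Day 14 over Day 7. The B-type cyclins therefore differed from each other, with no overlap of those 2 intervals. Plk1, the polo-like kinase, was at 2.82 CPM on Day 3 (5 UMIs, 0.916 to 6.58), 15.5 CPM on Day 7 (69 UMIs, 12.1 to 19.6) and 26.2 CPM on Day 14 (121 UMIs, 21.8 to 31.4). Only 5 UMIs were seen on Day 3, and the log2 ratios over that day were 2.46 (1.17 to 4.13) for Day 7 and 3.22 (1.96 to 4.87) for Day 14. Aurka, a centrosome kinase, was at 12.4 CPM on Day 3 (22 UMIs, 7.78 to 18.8), 6.98 CPM on Day 7 (31 UMIs, 4.74 to 9.904) and 18.4 CPM on Day 14 (85 UMIs, 14.7 to 22.8).

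Of the 8 members of the chromosomal passenger complex, the spindle checkpoint and the centromere, Birc5 had its own pattern over the days. Birc5, also called survivin, a passenger protein and inhibitor of apoptosis, was at 76.7 CPM on Day 3 (136 UMIs, 64.4 to 90.8), 27.7 CPM on Day 7 (123 UMIs, 23.01 to 33.03) and 67 CPM on Day 14 (309 UMIs, 59.7 to 74.9). It was lower on Day 7 than on both other days, with a log2 ratio of -1.47 (-1.83 to -1.11) for Day 7 over Day 3, and with -0.20 (-0.49 to 0.11) for Day 14 over that day. The passenger proteins were not alike in this, since Cdca8, borealin, was at 19.8 CPM on Day 3 (35 UMIs, 13.8 to 27.5), 26.8 CPM on Day 7 (119 UMIs, 22.2 to 32.05) and 63.97 CPM on Day 14 (295 UMIs, 56.9 to 71.7). Aurkb, the kinase of the complex, was at 10.7 CPM on Day 3 (19 UMIs, 6.46 to 16.7), 8.55 CPM on Day 7 (38 UMIs, 6.05 to 11.7) and 24.9 CPM on Day 14 (115 UMIs, 20.6 to 29.9). Cenpa, the centromeric histone H3 variant, was at 29.3 CPM on Day 3 (52 UMIs, 21.9 to 38.5), 35.1 CPM on Day 7 (156 UMIs, 29.8 to 41.1) and 71.3 CPM on Day 14 (329 UMIs, 63.8 to 79.5). Bub1b, a checkpoint protein, was at 8.46 CPM on Day 3 (15 UMIs, 4.74 to 13.96), 14.4 CPM on Day 7 (64 UMIs, 11.1 to 18.4) and 39.2 CPM on Day 14 (181 UMIs, 33.7 to 45.4). The last 3 of the group were scarce. Cenpe, a kinetochore motor, had 2, 47 and 72 UMIs over the days in turn, and its Day 14 level stood 3.79 (1.89 to 6.86) above that of Day 3 on the log2 scale. Cenpf, a kinetochore protein, had 11, 54 and 93 UMIs, and Bub1, a checkpoint kinase, 9, 15 and 27.

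The 8 spindle and cytokinesis members summed to 88.02, 80.8 and 195 CPM. Prc1, which bundles the microtubules of the central spindle, was at 19.2 CPM on Day 3 (34 UMIs, 13.3 to 26.8), 18.01 CPM on Day 7 (80 UMIs, 14.3 to 22.4) and 28.4 CPM on Day 14 (131 UMIs, 23.8 to 33.7). Kif20a, a kinesin of cytokinesis, was at 9.59 CPM on Day 3 (17 UMIs, 5.59 to 15.4), 13.7 CPM on Day 7 (61 UMIs, 10.5 to 17.6) and 29.7 CPM on Day 14 (137 UMIs, 24.9 to 35.1). Kif11, the motor that pushes the spindle poles apart, was at 10.2 CPM on Day 3 (18 UMIs, 6.02 to 16.1), 8.33 CPM on Day 7 (37 UMIs, 5.86 to 11.5) and 32.5 CPM on Day 14 (150 UMIs, 27.5 to 38.2). Kif11 had the highest log2 ratio of Day 14 over Day 7 of all members, 1.97 (1.44 to 2.53). Kif23, another kinesin of cytokinesis, was at 14.7 CPM on Day 3 (26 UMIs, 9.58 to 21.5), 7.88 CPM on Day 7 (35 UMIs, 5.49 to 10.96) and 16.5 CPM on Day 14 (76 UMIs, 12.98 to 20.6). Its log2 ratio of Day 7 over Day 3 was below 0, at -0.90 (-1.67 to -0.11). Nusap1, Tpx2, Kif2c and Hmmr, which act on spindle microtubules, had log2 ratios of 1.90 (1.37 to 2.46), 1.15 (0.69 to 1.64), 1.33 (0.61 to 2.09) and 1.22 (0.60 to 1.87) for Day 14 over Day 7.

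The 3 members of mitotic exit were the role group whose sum was higher on Day 7 than on Day 3 with an interval above 0, apart from Stmn1, at 74.5, 100.2 and 220.1 CPM and a log2 ratio of 0.43 (0.14 to 0.72). Cdc20, the activator of the anaphase-promoting complex, was at 16.9 CPM on Day 3 (30 UMIs, 11.4 to 24.2), 27.7 CPM on Day 7 (123 UMIs, 23.01 to 33.03) and 84.6 CPM on Day 14 (390 UMIs, 76.4 to 93.4). Cdca3, which promotes the breakdown of a mitosis inhibitor, was at 18.1 CPM on Day 3 (32 UMIs, 12.3 to 25.5), 38.7 CPM on Day 7 (172 UMIs, 33.1 to 44.95) and 68.5 CPM on Day 14 (316 UMIs, 61.2 to 76.5). Day 7 over Day 3 came to a log2 ratio of 0.71 (0.12 to 1.34) for Cdc20 and 1.1 (0.55 to 1.69) for Cdca3, both with intervals above 0. Ube2c, the ubiquitin-conjugating enzyme of that complex, was at 39.5 CPM on Day 3 (70 UMIs, 30.8 to 49.9), 33.8 CPM on Day 7 (150 UMIs, 28.6 to 39.6) and 67 CPM on Day 14 (309 UMIs, 59.7 to 74.9), with no such step between Day 3 and Day 7.

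Mki67, the gene of the Ki-67 protein that coats mitotic chromosomes and marks cycling cells, was at 49.1 CPM on Day 3 (87 UMIs, 39.3 to 60.5), 36.5 CPM on Day 7 (162 UMIs, 31.1 to 42.5) and 124 CPM on Day 14 (570 UMIs, 114 to 134). Top2a, the topoisomerase that untangles the copied DNA, was at 24.3 CPM on Day 3 (43 UMIs, 17.6 to 32.7), 28.1 CPM on Day 7 (125 UMIs, 23.4 to 33.5) and 88.7 CPM on Day 14 (409 UMIs, 80.3 to 97.7). Both stood above their Day 7 level on Day 14, with log2 ratios of 1.76 (1.51 to 2.02) for Mki67 and 1.66 (1.36 to 1.96) for Top2a. Stmn1, stathmin, which takes microtubules apart and is also made by cells that do not divide, such as neurons, was at 89.2 CPM on Day 3 (158 UMIs, 75.8 to 104), 118 CPM on Day 7 (525 UMIs, 108 to 129) and 312 CPM on Day 14 (1437 UMIs, 296 to 328). Stmn1 alone gave 13.4% of the members' UMIs over the 3 sections, and without it the sum of the others had a log2 ratio of 1.11 for Day 14 over Day 3.

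Counted member by member, the Day 14 section was higher across nearly the whole list. A ratio was computed for members with at least 50 UMIs over both sections. Of 35 members compared between Day 7 and Day 3, 2 were at least 2-fold higher on Day 7 (Plk1 and Cdca3), against 8.04% of the 10541 genes compared, and 2 were at least 2-fold lower (Tyms and Birc5), against 6.49%. Of 39 members compared between Day 14 and Day 3, 25 were at least 2-fold higher on Day 14, against 14.4% of 10955 genes, and 0 were at least 2-fold lower, against 6.83%. Of 39 members compared between Day 14 and Day 7, 23 were at least 2-fold higher on Day 14, against 10.9% of 11746 genes, and 0 were at least 2-fold lower, against 7.34%. The median log2 ratio of the members was 0.11, 1.28 and 1.15 for those comparisons in turn, beside 0.04, 0.18 and 0.13 over all genes compared. All 39 ratios of Day 14 over Day 7 were above 0, and 36 had intervals above 0, the exceptions being Mcm6, Tyms and Ccnb2. Bub1 fell short of 50 UMIs in every comparison, as did Hells, Cenpe, Kif2c and Hmmr between Day 7 and Day 3. The comparisons of Day 14 share the Day 14 section, so they are not independent of each other.

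**Figure D2:**
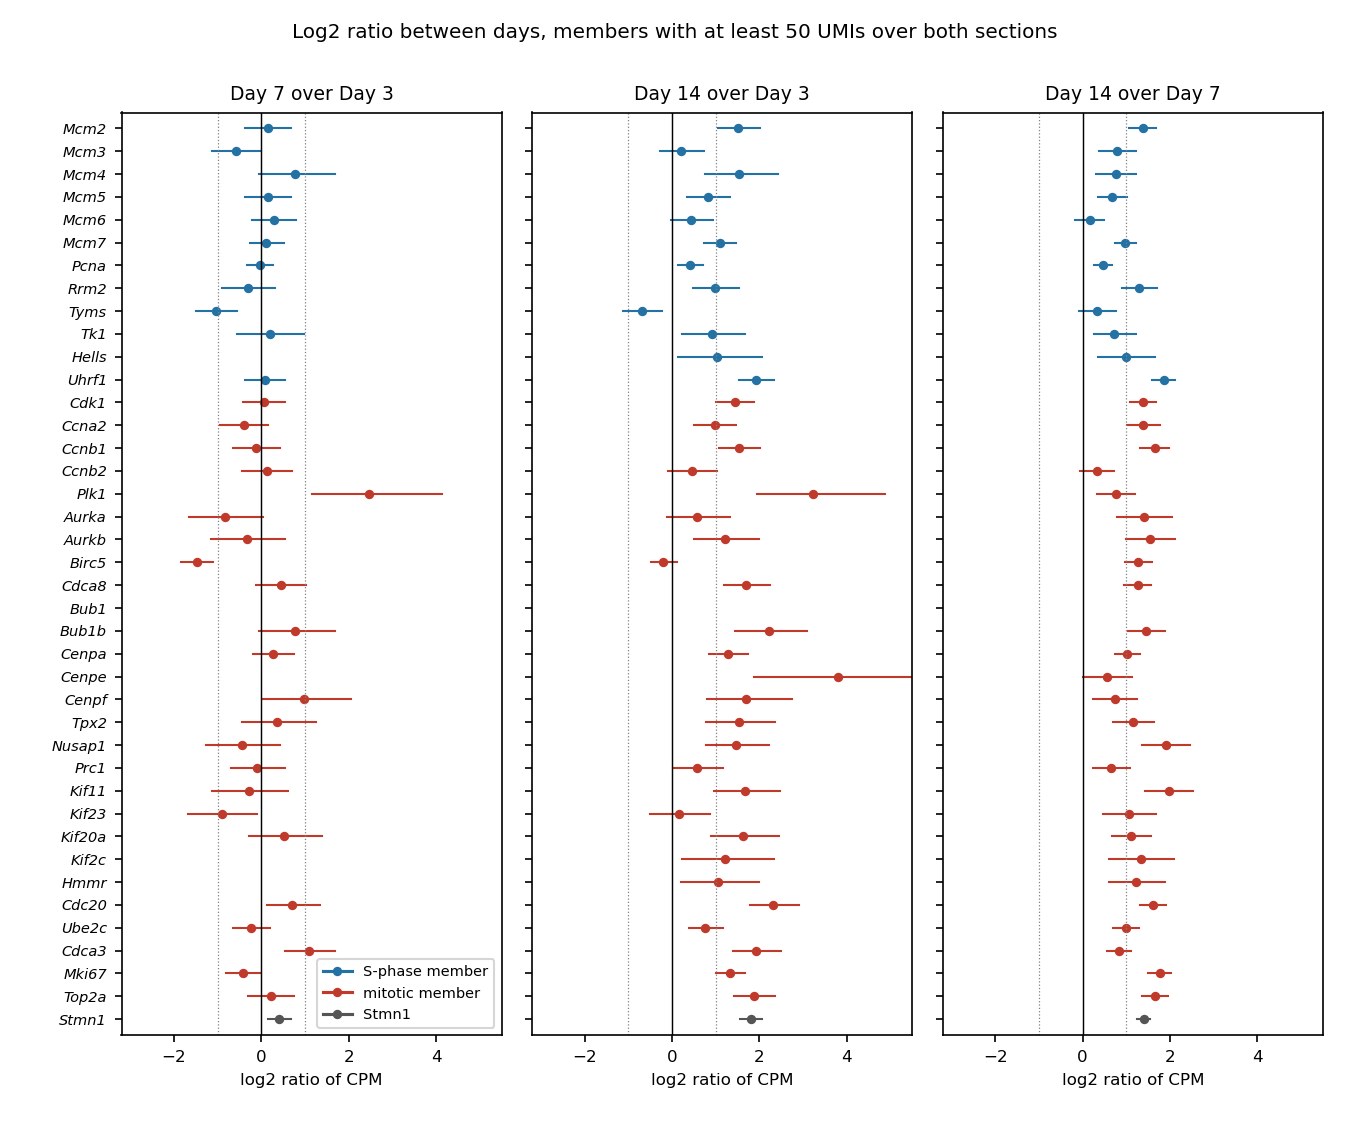
Each point is the log2 ratio of a member's CPM between 2 days, with its exact conditional binomial 95% interval. Dotted lines mark 2-fold, members under 50 UMIs are left blank, and the Day 14 over Day 3 bar of Cenpe runs beyond the axis. The Day 7 over Day 3 points straddle 0, while all 39 points of Day 14 over Day 7 lie above it.

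The mitotic and S-phase members did not differ by the same factor. The 27 mitotic members were at 508, 501 and 1209 CPM and the 12 S-phase members at 341, 331 and 626 CPM. Day 14 over Day 7 came to a log2 ratio of 1.27 (1.20 to 1.34) for the mitotic set and 0.92 (0.83 to 1.01) for the S-phase set, and the intervals do not overlap. Per S-phase UMI the Day 3 section held 1.49 mitotic UMIs (1.34 to 1.66), the Day 7 section 1.52 (1.42 to 1.62) and the Day 14 section 1.93 (1.84 to 2.02). The first pair of days overlap and Day 14 lies above both. Without the Krt71-rich spots the Day 14 value was 1.85 (1.76 to 1.95).

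Depth differed between sections, so the share of spots with any mitotic UMI was also taken after each spot was thinned to 1000 UMIs, leaving out 238, 24 and 18 shallower spots. A mitotic UMI was then seen in 26.5% of 426 Day 3 spots (22.4 to 31.0), 37.0% of 525 Day 7 spots (32.8 to 41.2) and 59.9% of 679 Day 14 spots (56.1 to 63.7). Before thinning the share was 35.2%, 80.7% and 86.7%, over all 664, 549 and 697 spots under tissue, the shallower ones included. In the 10% of spots richest in muscle markers, a tissue of non-dividing fibres, the thinned share was 2.56% (1 of 39 spots), 16.7% (8 of 48) and 26.2% (17 of 65). For S-phase members the thinned share was 21.6%, 24.4% and 38.4%. The Day 7 share lies above that of Day 3 here while the pooled mitotic CPM of those days overlap, so no order of these 2 days is read from the shares.

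Within each section the members were spread unevenly. Over spots with at least 500 UMIs (520, 539 and 689 spots), the score of a spot, member UMIs per 10000 UMIs, had a median of 4.62, 8.32 and 17.5 and a highest value of 53.9, 31.5 and 82.5. No member UMI was seen in 220, 49 and 41 of these spots. The median of these spots held 1, 6 and 9 member UMIs, so the spot scores are not compared between days. On the map of spots, high Day 14 spots formed a block that overlaps the Krt71-rich spots and a smaller group at the other end of the section, high Day 3 spots lay around its middle, and those of Day 7 were scattered.

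**Figure D3:**
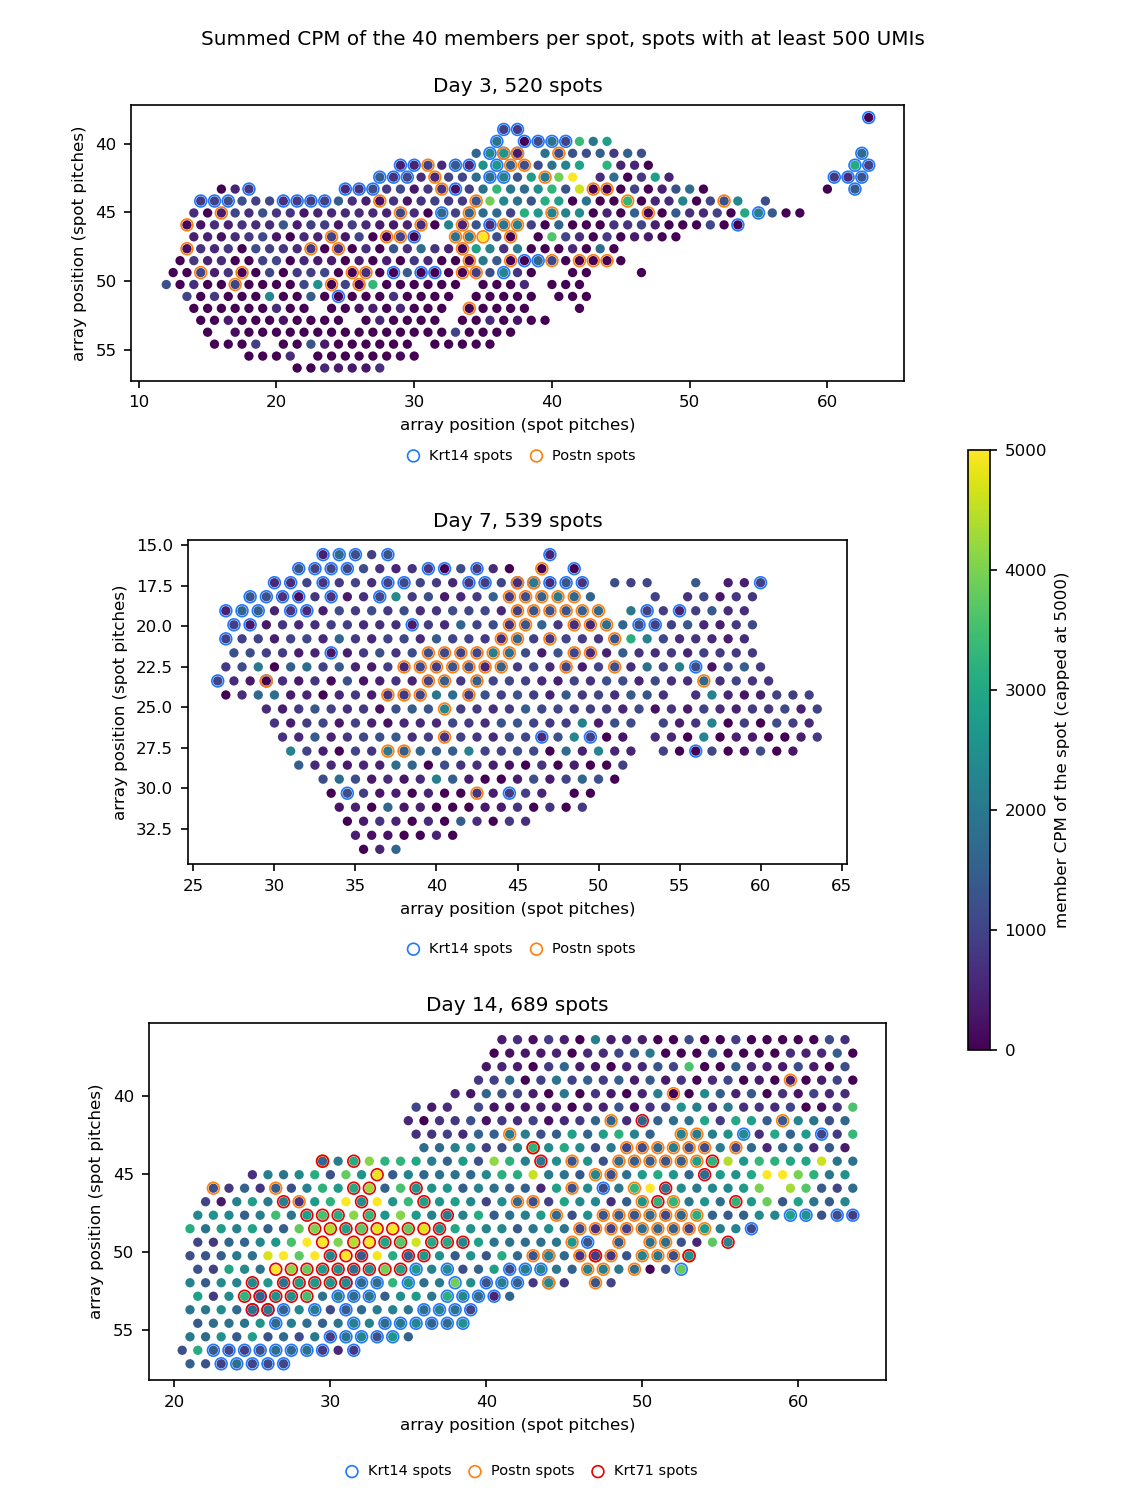
Each dot is a spot with at least 500 UMIs at its place on the array, in units of the distance between neighbouring spots, coloured by the summed CPM of the 40 members, with the highest values capped as the colour bar says. Open rings mark the 10% of spots richest in Krt14, Postn or, on Day 14, Krt71. On Day 14, 25 of the 69 spots with the highest score carry a Krt71 ring.

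To ask which tissue held the members, the 10% of spots with the most UMIs of a marker gene per UMI was set against all other spots of its section. No member is a marker. Krt14 spots were the 10% richest in this gene of surface epidermis and follicle sheaths. There the members were higher on Day 3 and lower on Day 14 than in the other spots. They stood at 1151 CPM in those spots and 905 CPM in the other spots on Day 3, a log2 ratio of 0.35 (0.16 to 0.53). On Day 7 they stood at 908 CPM in those spots and 955 CPM in the other spots, a log2 ratio of -0.07 (-0.23 to 0.08), and on Day 14 at 1794 CPM in those spots and 2227 CPM in the other spots, a log2 ratio of -0.31 (-0.39 to -0.23). Krt14 spots were deeper than the others, with medians of 3758.5 and 1895.5 UMIs on Day 3 and 11777 and 4545.5 on Day 14, and in spots with at least 2000 UMIs the ratios were 0.30 and -0.33. Depth was not matched between the sets of spots, and its part was not tested. Without muscle- and fat-rich spots among the others, the Day 3 ratio was 0.07. With each spot given equal weight it was 0.67 on Day 3 and -0.05 on Day 14. With a list of 7 basal epidermis genes, Krt14 among them, in place of Krt14, the Day 3 ratio was 0.179 (0.009 to 0.346). On that day the mitotic members had -0.012 (-0.254 to 0.224) and the S-phase members 0.310 (0.031 to 0.582) by this list. Its Day 14 ratio for all members was -0.285 (-0.364 to -0.206).

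On Day 3, 10 members could be compared in Krt14 spots, and 0 of them were at least 2-fold higher there, against 6.39% of 5637 genes. By the interval bound nearer to 0 the highest were Birc5 (32 UMIs in these spots and 104 in the others, log2 ratio 0.74, 0.12 to 1.32), Pcna (31 UMIs in these spots and 101 in the others, log2 ratio 0.74, 0.11 to 1.33) and Stmn1 (36 UMIs in these spots and 122 in the others, log2 ratio 0.68, 0.10 to 1.23). On Day 14, 33 of 39 members were below 0 in Krt14 spots and 0 were at least 2-fold higher, against 3.40% of 10029 genes. Ranked by the interval bound nearer to 0, Uhrf1 was the lowest (76 UMIs in these spots and 510 in the others, log2 ratio -0.61, -0.98 to -0.26) and Mcm3 the highest (31 UMIs in these spots and 105 in the others, log2 ratio 0.37, -0.25 to 0.96). On Day 7, 14 of 30 members were above 0 and 0 were at least 2-fold higher, against 4.38% of 9422 genes. In that comparison 4 members were at least 2-fold lower, Tk1, Plk1, Tpx2 and Ube2c. The share of all genes in that direction is not given here, so nothing is read from this count.

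In Postn spots, the granulation tissue, the members were higher than elsewhere on Day 7 and lower on Day 14. They stood at 1202 CPM in those spots and 886 CPM in the other spots on Day 7, a log2 ratio of 0.44 (0.34 to 0.54). On Day 14 they stood at 1637 CPM in those spots and 2197 CPM in the other spots, a log2 ratio of -0.42 (-0.54 to -0.31). Postn itself was at 7147 CPM in its spots and 2802 CPM in the other spots on Day 7. The other spots can therefore hold granulation tissue as well. On Day 7, 25 of 30 members were above 0, and 2 were at least 2-fold higher, Tpx2 (24 UMIs in these spots and 31 in the others, log2 ratio 1.58, 0.75 to 2.40) and Kif20a (21 UMIs in these spots and 40 in the others, log2 ratio 1.02, 0.19 to 1.82), against 1.42% of 9422 genes. Mki67 was not among them (33 UMIs in these spots and 129 in the others, log2 ratio -0.01, -0.61 to 0.55). The Day 7 Postn spots were also deeper, with a median of 16478 UMIs against 6067 in the others, and among spots with at least 2000 UMIs, where the depths still differ, the log2 ratio was 0.43. The part of depth was not tested. On Day 14, 0 of 39 members were at least 2-fold higher in Postn spots, against 4.87% of 10029 genes, and 5 were at least 2-fold lower, against 7.42%, among them Kif20a (3 UMIs in these spots and 134 in the others, log2 ratio -2.13, -4.43 to -0.56) and Ccnb1 (14 UMIs in these spots and 315 in the others, log2 ratio -1.15, -2.03 to -0.38). With each spot given equal weight the Day 14 ratio was -0.20.

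On Day 3 Postn was scarce, and the sum of members in its spots had a log2 ratio of 0.13 (-0.09 to 0.35), but the 2 sets parted. The mitotic members stood at 736 CPM in those spots and 484 CPM in the other spots, a log2 ratio of 0.61 (0.34 to 0.87). The S-phase members stood at 233 CPM in those spots and 356 CPM in the other spots, a log2 ratio of -0.61 (-1.09 to -0.17). These spots held 3.16 mitotic UMIs per S-phase UMI (2.24 to 4.54), above the 1.49 of the whole section. Mki67 (20 UMIs in these spots and 66 in the others, log2 ratio 1.33, 0.53 to 2.07) and Cdk1 (12 UMIs in these spots and 40 in the others, log2 ratio 1.31, 0.25 to 2.27) were at least 2-fold higher of 10 members compared, against 4.08% of 5637 genes. With the list of 8 granulation tissue genes (among them Tnc, Tnn and Acta2) in place of Postn alone, the log2 ratio of all members on Day 3 was 0.94 (0.77 to 1.11), with 1.41 (1.19 to 1.62) for the mitotic and 0.35 (0.02 to 0.68) for the S-phase members. The spots by Postn and by the list shared 23 of 52. In the spots by the list, Birc5 (41 UMIs in these spots and 95 in the others, log2 ratio 1.61, 1.04 to 2.15), Mki67 (24 UMIs in these spots and 62 in the others, log2 ratio 1.45, 0.71 to 2.15), Cdk1 and Ube2c were at least 2-fold higher of 10 compared, against 8.34% of 5637 genes.

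Endothelial spots of Day 3, taken by Pecam1, Cdh5, Kdr and 4 more vessel genes, had members of both sets above the other spots. The S-phase members stood at 704 CPM in those spots and 303 CPM in the other spots, a log2 ratio of 1.22 (0.92 to 1.51), and the mitotic members had 0.81 (0.54 to 1.06), an interval that overlaps the first. Uhrf1 (21 UMIs in these spots and 38 in the others, log2 ratio 2.32, 1.48 to 3.13) and Cdk1 (18 UMIs in these spots and 34 in the others, log2 ratio 2.26, 1.35 to 3.12) were at least 2-fold higher of 10 compared, against 4.35% of 5637 genes. Mki67 was not (8 UMIs in these spots and 78 in the others, log2 ratio -0.11, -1.37 to 0.94). These spots held 1.18 mitotic UMIs per S-phase UMI (0.921 to 1.51), and the interval does not overlap that of the granulation tissue list, 2.66 (2.09 to 3.42). Depth differed little for both sets of spots, with medians of 2331.5 and 1730 UMIs against 1959.5 and 2003.5 in their comparison spots, and the sets shared 9 of 52 spots.

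Of the 3 marker genes on Day 14, Krt71, which marks growing hair follicles, had the spots with the highest member level. They stood at 3139 CPM in those spots and 1947 CPM in the other spots, a log2 ratio of 0.69 (0.62 to 0.76), so that 10% of the spots, with 16.8% of all UMIs, held 24.5% of the member UMIs. All 39 members compared were above 0, with a median of 0.73 beside 0.09 over all genes, and 6 were at least 2-fold higher, against 2.96% of 10029 genes. These were Tyms, Plk1, Aurka, Tpx2, Prc1 and Kif2c. By the interval bound nearer to 0 the highest were Plk1 (40 UMIs in these spots and 81 in the others, log2 ratio 1.29, 0.71 to 1.86), Top2a (113 UMIs in these spots and 296 in the others, log2 ratio 0.92, 0.60 to 1.24) and Stmn1 (365 UMIs in these spots and 1072 in the others, log2 ratio 0.76, 0.58 to 0.93). Mki67 lay below the members' median (137 UMIs in these spots and 433 in the others, log2 ratio 0.65, 0.36 to 0.93). The lowest were Pcna (86 UMIs in these spots and 381 in the others, log2 ratio 0.16, -0.19 to 0.51), Kif20a and Mcm2. The mitotic set differed more, 0.76 (0.68 to 0.85), than the S-phase set, 0.51 (0.38 to 0.63), with 2.21 mitotic UMIs per S-phase UMI (2.01 to 2.43). Krt71 spots were deeper (median 10677 against 4567.5 UMIs), and among spots with at least 2000 UMIs the log2 ratio was 0.68, with depth still unmatched and its part not tested. After thinning to 1000 UMIs, 81.2% of 69 Krt71 spots held a mitotic UMI (69.9 to 89.6). The share was 59.9% over all 679 thinned spots of the section, Krt71 spots included, and 26.2% in the muscle spots.

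Other marker lists were used in the same way. Muscle spots were lowest on each day, at -2.79 (-3.79 to -1.94), -1.39 (-1.83 to -0.97) and -2.15 (-2.46 to -1.86) on the log2 scale, followed on Day 3 and Day 14 by fat spots at -2.09 (-2.63 to -1.60) and -1.54 (-1.77 to -1.32). On Day 3 the spots of wound-activated keratins (Krt6a, Krt6b, Krt16 and others) had 0.69 (0.50 to 0.88), with Birc5 at 34 UMIs in these spots and 102 in the others, log2 ratio 1.46, 0.85 to 2.03. Macrophage spots had 0.42 (0.21 to 0.63) on Day 3, at 1224 CPM against 912 CPM in the other spots. Their Day 14 ratio was -0.59 (-0.72 to -0.47), at 1463 CPM against 2208 CPM in the other spots. On Day 14 the inner root sheath list gave 0.66 (0.59 to 0.72) and the hair matrix and shaft list 0.50 (0.42 to 0.58). The Krt71 spots shared 51 of 69 spots with the former list and 29 of 69 with the latter. Neither hair list reached 100 UMIs on Day 3 or Day 7.

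**Figure D4:**
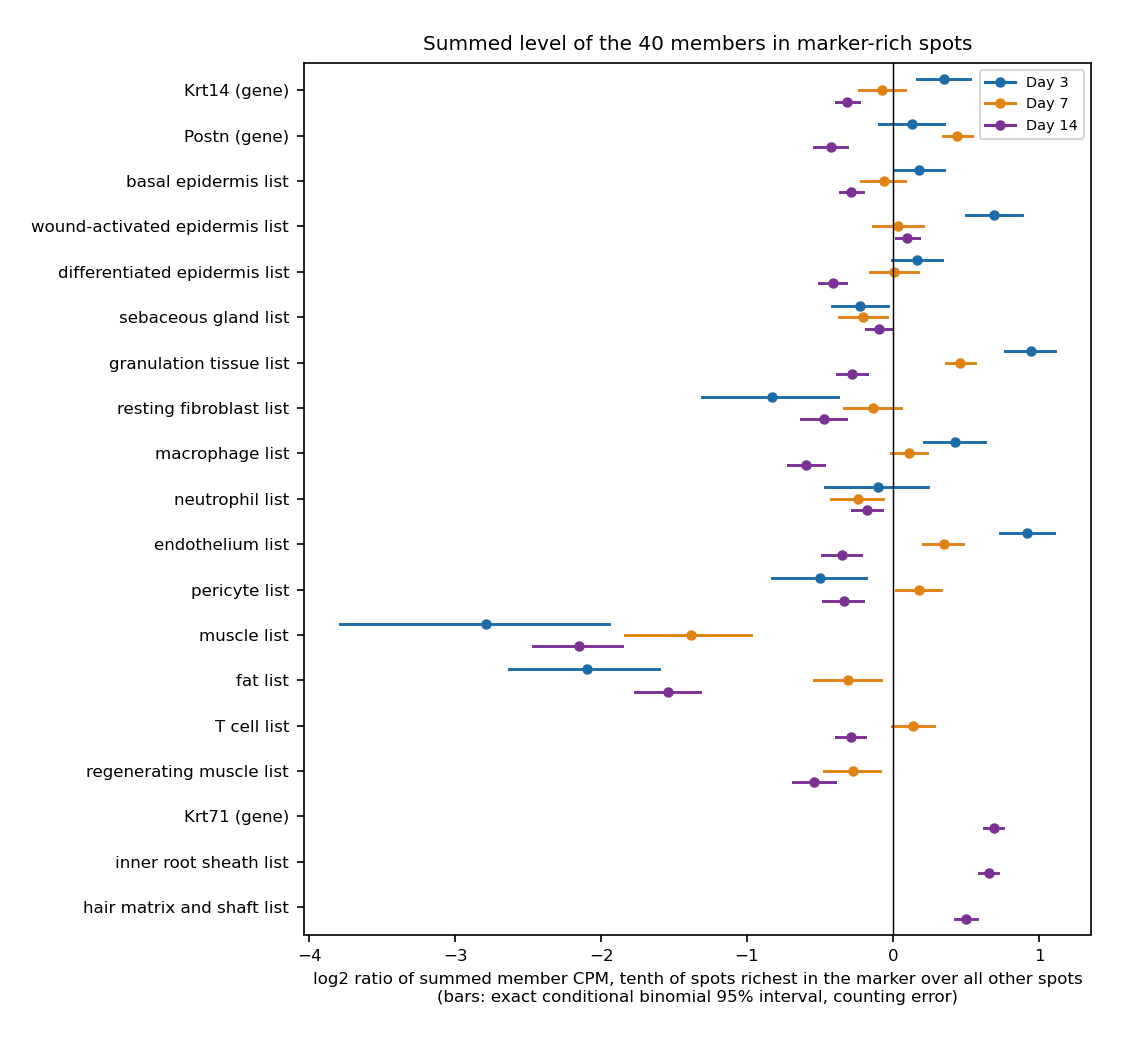
Each point is the log2 ratio of the members' summed CPM in the 10% of spots richest in a marker gene or list over all other spots of that section, with its exact conditional binomial 95% interval. A missing point means that the marker was too scarce on that day. Granulation tissue and endothelium lie right of 0 on Day 3 and Day 7 and left of 0 on Day 14, where Krt71 lies furthest right, followed by the inner root sheath and the hair matrix and shaft lists.

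The level was also followed by distance from the marker spots. From Krt14 spots outward, at 0, 1, 2, 3 to 4 and 5 or more spot pitches, the Day 3 level was 1151, 1094, 1092, 960.5 and 350.5 CPM. On Day 7 it was 908.2, 999, 948.4, 892.5 and 1026 CPM, with no steady order. On Day 14 it was highest at 3 to 4 pitches, at 1794, 2073, 2389, 2733 and 1716 CPM. From Krt71 spots the Day 14 level was lower with each step, at 3139, 2552, 1964, 1854 and 1313 CPM, and from Postn spots the Day 7 level went from 1202 CPM to 830.5 CPM. Median depth also differed with distance. From Krt14 spots outward it went from 3758.5 to 1685 UMIs on Day 3, from 7505 to 8840 on Day 7 and from 11777 to 3546 on Day 14. From Krt71 spots it went from 10677 to 3130.5 UMIs, and from Day 7 Postn spots from 16478 to 4358 UMIs. The part of depth in these levels was not tested.

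**Figure D5:**
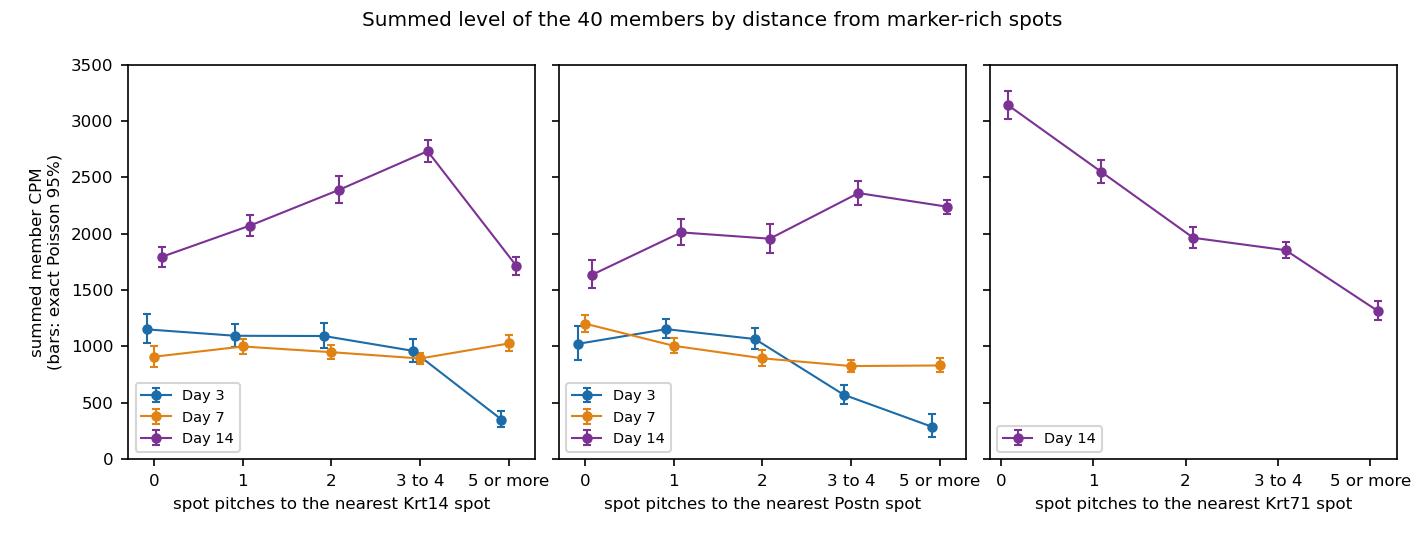
Summed CPM of the 40 members by distance from the nearest Krt14, Postn or Krt71 spot, in spot pitches, with exact Poisson 95% intervals. Day 14 peaks 3 to 4 pitches from Krt14 spots and is highest at the Krt71 spots themselves.

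Each set was also measured in spots chosen by the other. Among spots with at least 2000 UMIs, the 10% richest in mitotic members had S-phase members at a log2 ratio over the rest of 1.33 (1.05 to 1.60), 0.27 (0.03 to 0.49) and 0.81 (0.67 to 0.94) on the days in turn. The 10% richest in S-phase members had mitotic members at 1.26 (1.023 to 1.499), 0.37 (0.17 to 0.56) and 0.88 (0.78 to 0.97). Spots rich in one set thus held more of the other on each day, least so on Day 7. On Day 3 and Day 14 those spots were also the deeper ones, with medians of 6829 against 4109.5 UMIs and 8134.5 against 5218 UMIs for the mitotic choice.

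The 10% of spots with the highest score were chosen by the members themselves, so a member share above their share of all UMIs follows from the choice. They held 41.2% of the member UMIs on Day 3 in 14.0% of all UMIs, 21.8% in 11.6% on Day 7 and 26.6% in 13.4% on Day 14. The median spot with at least 500 UMIs held 1, 6 and 9 member UMIs on the days in turn, so these shares are not compared between days. The lowest score inside and the highest outside were 19.3 and 18.9 on Day 3, 15.2 and 15.1 on Day 7, and 32.2 and 32.1 on Day 14. Of the 52 spots on Day 3, 17 were granulation tissue spots by the list, 12 endothelial and 8 Krt14 spots. Of the 54 on Day 7, 14 were Postn spots, and of the 69 on Day 14, 25 were Krt71 spots and 17 hair matrix and shaft spots. By design each of these marker classes made 10% of all spots with at least 500 UMIs in its section. In 40 of 52, 34 of 54 and 53 of 69 cases such a spot touched another one. For the touching of spots, no share for spots picked without the score was computed.

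The 3 further lists of cell cycle genes hold no member. Of 46 further mitosis genes, 42 were compared between Day 14 and Day 7: all 42 were above 0, 18 were at least 2-fold higher, against 10.9% of all genes compared, and 0 were at least 2-fold lower, against 7.34%. The 3 with the most UMIs were Tubb5, a tubulin, at 457, 825 and 879 CPM, H2afz, a histone variant, at 257, 279 and 392 CPM, and Tubb4b, another tubulin, at 223, 163 and 263 CPM. Of 28 further replication genes, 23 of the 25 compared were above 0, 6 were at least 2-fold higher (10.9% of all genes) and 0 were at least 2-fold lower (7.34% of all genes), with Dut, which hydrolyses dUTP, at 32.2, 49.97 and 126 CPM, Dtymk, a thymidylate kinase, at 54.7, 54.2 and 57.7 CPM, and Rrm1, the partner of Rrm2, at 25.96, 38.3 and 42.9 CPM. Of 24 genes of G1 control and of cycle inhibition, 22 were compared, 17 were above 0 and 5 below, 7 were at least 2-fold higher (10.9% of all genes), among them the cyclin Ccnd2 (130.3, 79.9 and 205 CPM), and 1 was at least 2-fold lower (7.34% of all genes), the inhibitor Cdkn1c (22.01, 57.6 and 18.6 CPM). Cdkn1a, a general inhibitor of cyclin-dependent kinases, was at 165, 107 and 196 CPM, and Cdk4, the kinase of the D-type cyclins, at 82.4, 165 and 147 CPM. Between Day 14 and Day 3, 3 of 21 compared genes of this last list were at least 2-fold higher, against 14.4% of all genes. None was at least 2-fold lower, against 6.83%. For the same days 21 of 38 further mitosis genes and 7 of 23 further replication genes were at least 2-fold higher, and 0 of either lower.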

How the data were processed

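Spatial RNA of 3 skin wound sections, 1 per day, was analysed. Per the labels and the study's methods, the authors ran Space Ranger 1.3.0 on mm10 to obtain UMI counts of each gene in each spot, and the deposited counts are raw. Which gene annotation was used is not given in the sources used here. Members and lists were chosen with earlier results of these data known.

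UMIs under tissue were summed per gene and divided by all UMIs (CPM). Genes needed 50 UMIs over both sides of a comparison, and a member counted as called at 2-fold. Sums have exact Poisson, shares exact binomial (Clopper-Pearson) and ratios exact conditional binomial 95% intervals, which hold no variation between animals. Marker spots were the 10% of spots with at least 500 UMIs richest in a marker, which needed 100 UMIs in the section. Thinning drew 1000 UMIs per spot (seed 1). Python 3.11.15 with numpy 2.4.6, scipy 1.17.1 and pandas 2.3.3 was used, after a check of the intervals on simulated data. Scaling by edgeR 4.0.16 TMM factors and DESeq2 1.42.0 size factors (R 4.3.3) was tried as an alternative only, as were other spot shares, gene minimums and thinning depths. No count model was fitted.

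Values on each day were given for the 3 members with the most UMIs in each role group, for the 3 highest and 3 lowest members of each comparison, ordered by whichever interval bound lay closer to 0, and for the 3 genes with the most UMIs of each further list. Other members were named where a count or a role called for it, after their values were seen.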

Additional observations from a re-analysis of the deposited data

Results flagged for a closer look

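Member UMIs were also found in spots that the tissue image left outside the marked tissue, which the comparisons did not use. These spots held 1703210, 6457066 and 4715272 UMIs of all genes on Day 3, Day 7 and Day 14. That was close to or above the 1772259, 4442962 and 4611723 UMIs under tissue. Their member UMIs were 636, 3221 and 4684. The Day 3 level there was 373.4 CPM (345 to 403.6), the Day 7 level 498.8 CPM (481.8 to 516.4) and the Day 14 level 993.4 CPM (965.1 to 1022), each below the level under tissue of the same section and highest on Day 14 as under tissue.

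The members' log2 ratio in marker spots over the other spots had opposite signs on different days, and each difference between days was not tested, since each day had 1 section. In Krt14 spots it was 0.35 on Day 3 and -0.31 on Day 14. In Postn spots it was 0.44 on Day 7 and -0.42 on Day 14.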

How the results depend on the processing

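Of 177 alternative values for 44 results, 118 stayed within the counting interval of the reported value, or for counts of members within 1.5 times. The other 59 did not, and 0 reversed a called direction. Only log2 ratios whose interval excluded 0 could count as reversed, so the other results could not. Of 33 alternatives for the member sum between days, 4 had the other sign, all for Day 7 over Day 3. In marker spots 2 of 56 alternatives for the member sum did. No paired analysis was possible because each day had 1 section and the labels carry no replicate numbers, and for the same reason no section could be left out. Alternatives that leave out Krt71 spots or muscle- and fat-rich spots, or keep spots with at least 2000 UMIs, were chosen after seeing the data. The causes of these moves were not tested. Scaling by TMM and DESeq2 factors shifted the ratios of all genes by 0.097 and 0.131 (Day 14 over Day 3, log2) and by 0.098 and 0.119 (Day 14 over Day 7).

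For the member sum, Day 7 over Day 3 was 0.302 by the mean of spot CPM, 0.115 by the median of members and -0.147 without muscle- and fat-rich spots. Day 14 over Day 3 was 1.096 (TMM), 1.063 (DESeq2), 1.422 (mean of spots), 1.112 (without Stmn1), 0.878 (S-phase only), 1.282 (median of members), 1.053 (without Krt71 spots) and 1.079 (without muscle- and fat-rich spots). Day 14 over Day 7 was 1.078 (TMM), 1.057 (DESeq2), 1.121 (mean of spots), 1.270 (mitotic only), 0.921 (S-phase only) and 1.035 (without Krt71 spots).

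In marker spots, the mean of spot CPM gave 0.673 (Krt14, Day 3), 0.384 (Postn, Day 3), -0.046 (Krt14, Day 14), -0.200 (Postn, Day 14) and 0.828 (Krt71, Day 14). Leaving muscle- and fat-rich spots out of the others gave 0.069, -0.129, -0.460, -0.549 and 0.557 for the same results. With 20% of spots, Postn gave 0.620 on Day 3 and -0.214 on Day 14, and with the granulation list 0.943 and -0.282. Krt14 on Day 14 was -0.213 without spots of another marker, and Krt71 was 0.621 with 5% of spots. The members at least 2-fold higher in Krt14 spots were 2 on Day 3 and 1 on Day 7 with 5% of spots, and 1 on each day with a minimum of 20 UMIs, where Postn on Day 3 had 5.

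Mitotic UMIs per S-phase UMI on the days in turn were 1.276, 1.321 and 1.591 without Mki67 and Top2a, and 1.917, 1.952 and 2.302 without Pcna. The thinned mitotic share was 13.08%, 19.29% and 35.7% at 500 UMIs, 41.86%, 57.65% and 80% at 2000 UMIs, and 32.57% on Day 7 with seed 2. By distance from Krt14 spots, taking 20% of spots gave 992.7, 1213, 683.9 and 151.8 CPM on Day 3 at 1, 2, 3 to 4 and 5 or more pitches, 908 CPM on Day 7 at 5 or more, and 2302, 2495 and 652.4 CPM on Day 14 at 1, 3 to 4 and 5 or more. Depth limits single members most on Day 3.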
